A study of Mus musculus with 12 samples.

Results

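The 10 genes described here belong to the unfolded protein response of the endoplasmic reticulum (ER) and to the amino acid response of the cytosol: Atf4, Ddit3, Atf3, Xbp1, Trib3, Chac1, Asns, Herpud1, Sesn2 and Ddit4. They were taken by symbol from a list that was drawn up with earlier results of these data known, and each was matched to 1 Ensembl gene of the 54146 genes counted. All 10 passed the filter on low counts, which kept 18628 genes. With edgeR no member met the thresholds for a change in any of 7 comparisons between ages (0 to 0.66% of all genes did), while DESeq2's test called 1, Trib3 from P32 to P34, and 7.63% of all genes in that comparison. Chac1, at 0.868 to 1.71 CPM (normalised counts of a gene relative to all counts of its library, scaled by edgeR's TMM method), was the only member whose 9 cKO values all lay above the 3 P30 control values, and 0.601% of all genes tested were separated from the controls in either direction.

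The study asked what happens to gene expression in the adult mouse retina after the homeobox gene Otx2 is deleted from photoreceptors. Whole retinas of 12 mice on a 129/SV background were sequenced, 1 library per mouse. Crx-CreERT2;Otx2 flox/flox mice (cKO) received a single injection of tamoxifen at P30 and were killed 2 d (P32, mice 4 to 6), 4 d (P34, mice 7 to 9) or 8 d later (P38, mice 10 to 12). The control mice (mice 1 to 3) were taken at P30, and their labels give no genotype or treatment beyond "control", so that age, tamoxifen and deletion cannot be told apart. The Crx promoter drives the tamoxifen-dependent recombinase in photoreceptors, whereas the RNA came from all retinal cells and included RNA of the retinal pigmented epithelium (RPE). A lower level can therefore reflect fewer cells of a type or less RNA per cell, which cannot be told apart.

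The libraries held 29701483 to 60145034 counts on genes. Recombination removes 1 coding exon and leaves the rest of the Otx2 transcript, so a count over the whole gene does not check the deletion. The paper compared reads on this exon with those on a neighbouring exon and reports a lower ratio at P32, P34 and P38 than at P30. Otx2 was at 293 to 328 CPM in the P30 mice and at 307 to 377 CPM in the libraries labelled cKO. By counts of X- and Y-linked genes 5 of the 9 cKO mice were male (mice 4, 7, 8, 10 and 11) and all P30 mice were female. P32 mouse 4 stood apart on the first principal component, which held 33.7% of the variance. Mice 4, 7 and 10 had the smallest shares of reads on no gene at their ages (8.67, 6.53 and 7.53%, against 9.95 to 13.7% in the other 9 mice). The summed level of 9 rod markers was 69432 to 75859 CPM at P30, 62942 to 68669 at P32, 78574 to 104086 at P34 and 76477 to 115151 at P38, with none of the 9 at 0. The 6 markers of ciliary body and iris summed to 42.5 to 51.1 CPM at P30 and 9.65 to 13.9 at P34, and the 8 lens markers ranged from 280 CPM at P34 to 45771 at P32, with no marker of either list at 0 in any library. The 5 ganglion cell markers summed to 615 to 883 CPM at P30, 653 to 789 at P32, 839 to 1186 at P34 and 880 to 1125 at P38. The part of these differences in the results below was not tested except where values without a mouse are given.

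As background, unfolded protein in the ER activates 3 membrane sensors. PERK phosphorylates the initiation factor eIF2α, as does GCN2 when uncharged tRNA accumulates, and this lowers protein synthesis while favouring translation of Atf4 mRNA. IRE1 splices Xbp1 mRNA into the form that encodes an active factor, and ATF6 is released from the membrane by cleavage. ATF4 induces Ddit3, Atf3, Trib3, Chac1, Asns and Sesn2, while XBP1 and ATF6 induce chaperones and components of ER-associated degradation such as Herpud1. Ddit4 and Sesn2 restrain the growth kinase complex mTORC1. Photoreceptors fold large amounts of opsin, and this response is studied in photoreceptor degeneration. Counts per gene show neither the splicing of Xbp1 nor the translation of Atf4.

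The proximal promoters were searched for response elements, since several members varied together between libraries. RefSeq sequences (GRCm38.p6) from 250 bases before to 50 after the start were found for all 10 members. The motifs, searched on both strands, were TGATGNAAN (the composite C/EBP-ATF element through which ATF4 acts), CCAAT and CCACG separated by 9 bases (ERSE), ATTGG and CCACG separated by 1 base (ERSE-II), TGACGTCA (CRE), and TGACGTGG and TGACGTGA (forms of the XBP1 element). The first was found in 5 of the 10 promoters (Atf3, Trib3, Chac1, Asns and Herpud1) and in 3.95% of 32851 mouse promoters of the same length. ERSE-II was found in 1 of 10 (Herpud1) and in 0.0365% of all. ERSE (0.119% of all promoters), CRE (1.79%), TGACGTGG (0.676%) and TGACGTGA (0.441%) were in none of the 10. A match is a description of the letters, and an element outside the window would not be seen. The 250 bases before the start are given for Atf3 and Asns, whose levels varied together most closely by rank, for Chac1, which was separated from the controls, and for Herpud1, which carries both elements. Capitals mark the matches, on the gene's strand from 5′ to 3′.
Atf3, chr1:191183334-191183583, minus strand: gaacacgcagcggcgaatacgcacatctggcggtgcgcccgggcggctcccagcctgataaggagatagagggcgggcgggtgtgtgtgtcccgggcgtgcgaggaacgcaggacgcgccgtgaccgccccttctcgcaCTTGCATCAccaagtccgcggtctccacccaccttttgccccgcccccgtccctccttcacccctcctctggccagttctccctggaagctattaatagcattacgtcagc
Asns, chr6:7693210-7693459, minus strand: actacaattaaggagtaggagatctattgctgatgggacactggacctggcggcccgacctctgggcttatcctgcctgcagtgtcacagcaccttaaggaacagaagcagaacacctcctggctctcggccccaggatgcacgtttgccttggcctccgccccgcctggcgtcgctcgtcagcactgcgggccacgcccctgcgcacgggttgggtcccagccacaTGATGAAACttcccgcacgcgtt
Chac1, chr2:119350992-119351241, plus strand: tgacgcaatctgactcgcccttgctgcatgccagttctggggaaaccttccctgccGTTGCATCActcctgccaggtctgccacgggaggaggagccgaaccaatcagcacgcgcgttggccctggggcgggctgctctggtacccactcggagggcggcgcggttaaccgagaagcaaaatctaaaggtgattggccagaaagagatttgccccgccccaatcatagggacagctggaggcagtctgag
Herpud1, chr8:94386179-94386428, plus strand: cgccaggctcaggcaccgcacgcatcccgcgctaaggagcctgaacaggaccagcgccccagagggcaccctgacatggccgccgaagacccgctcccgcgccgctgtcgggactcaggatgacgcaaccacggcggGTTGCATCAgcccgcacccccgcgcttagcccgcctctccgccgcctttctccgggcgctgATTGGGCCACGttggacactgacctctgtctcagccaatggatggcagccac
In Trib3 the match lay 14 bases after the start, and only its surroundings are shown.
Trib3, chr2:152344029-152344057, minus strand: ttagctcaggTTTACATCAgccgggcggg
The Atf3, Chac1, Herpud1 and Trib3 matches read as TGATGNAAN on the opposite strand, and the Asns match on the gene's own strand. They began 111 (Atf3), 194 (Chac1), 23 (Asns) and 113 bases (Herpud1) before the start, and the ERSE-II match of Herpud1 began 52 bases before it. These distances are from the RefSeq starts, which differ from the ends of the annotated genes. The starts used for Atf3 (gene at chr1:191170296-191218039), Asns (chr6:7675169-7693254) and Chac1 (chr2:119351229-119354381) lay inside the annotated genes. The Atf3 and Asns matches did so too, whereas the start and the match of Trib3 lay outside the annotated gene (chr2:152337422-152344032).

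Divided by the length of the gene's merged exons, the levels of the 10 members spanned a wide range and kept a clear order in part. Atf4, on chromosome 15 (80255184-80257541), was highest at 98.4 ± 14.7 CPM per kb (SD, n = 12 libraries), and its lowest library (83.3) lay above the highest of Ddit4 (46.8 to 79.1 CPM per kb). Ddit3 (26.4 ± 4.94), Asns (24.1 ± 4.17), Herpud1 (24.0 ± 3.12) and Xbp1 (20.9 ± 2.83 CPM per kb, all SD, n = 12) followed, and their ranges overlapped. Sesn2 was at 5.32 ± 0.541 CPM per kb, below all 4 of these in every library. Trib3 (1.56 to 3.47 CPM per kb) and Atf3 (1.60 to 2.89) overlapped, and Chac1 was lowest at 0.530 to 1.04 CPM per kb. The highest library exceeded the lowest by 1.39-fold for Sesn2 to 2.23-fold for Trib3 on the CPM scale. P32 mouse 4 was the highest of 12 for 5 members (Ddit3, Atf4, Trib3, Chac1 and Herpud1), and it was highest for 27.0% of all genes tested.

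**Figure D1:**
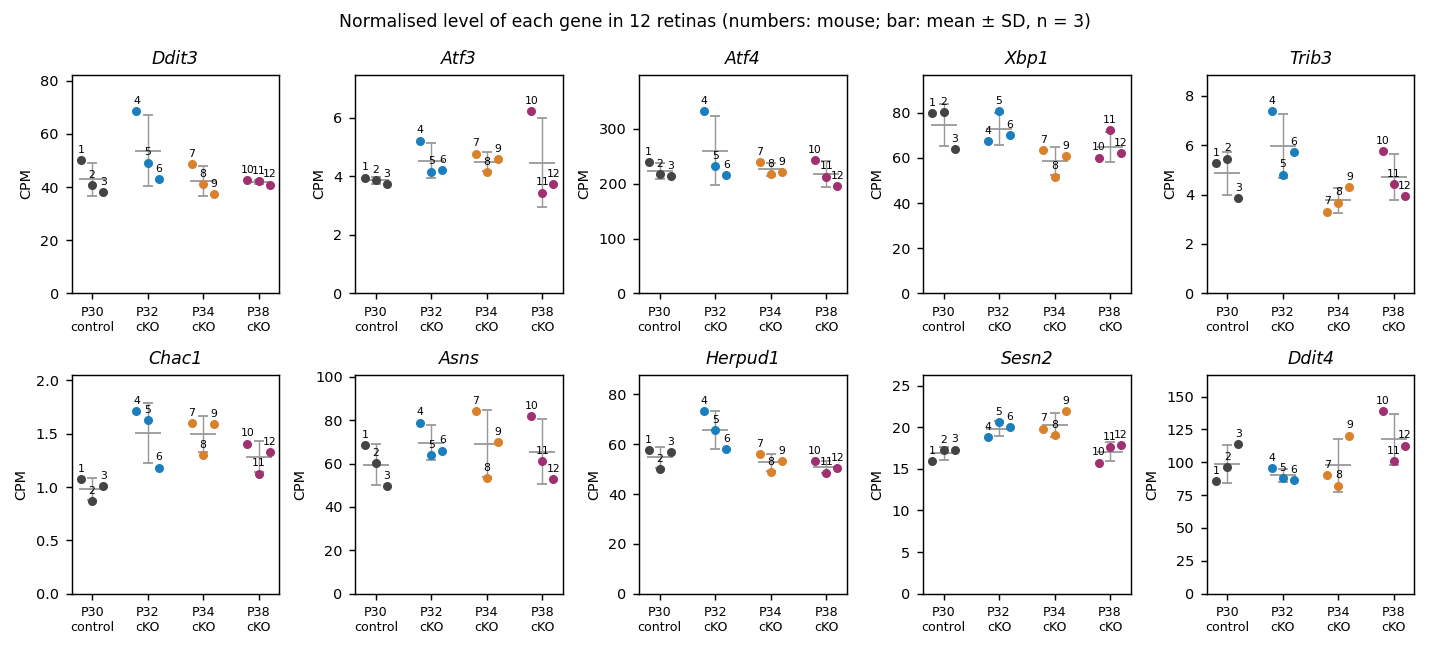
CPM of the 10 genes (vertical axes, each starting at 0) in P30 control and in P32, P34 and P38 cKO retinas. Points are mice with their numbers and bars are mean ± SD of 3 mice. Chac1 lay above the controls in every cKO mouse, while P32 mouse 4 was the highest point for Ddit3, Atf4, Trib3, Chac1 and Herpud1.

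Atf4 encodes the transcription factor at the center of the response to eIF2α phosphorylation. It was at 240, 217 and 213 CPM in P30 mice 1 to 3, at 333, 233 and 216 in the P32 mice, at 240, 218 and 221 in the P34 mice and at 243, 213 and 196 in the P38 mice. The groups overlapped at each age and only P32 mouse 4 lay well above the others. Relative to P30 the log2 fold change was 0.22 ± 0.15 (P32), 0.02 ± 0.15 (P34) and -0.04 ± 0.15 (P38), with edgeR adjusted p of 0.698, 0.984 and 0.977. Without P32 mouse 4 the P32 value was 0.0042.

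Ddit3 encodes CHOP, a factor induced by ATF4 that promotes apoptosis under prolonged ER stress. Its level was 50.1, 40.7 and 37.98 CPM at P30, 68.6, 49.2 and 43.1 in the P32 mice, 48.6, 41.1 and 37.5 in the P34 mice and 42.6, 42.3 and 41.0 in the P38 mice. Again P32 mouse 4 was highest, and the other P32 mice lay within the P30 range. The log2 fold change at P32 was 0.32 ± 0.17 (SE, unadjusted p = 0.0800 and adjusted p = 0.698 by edgeR) and fell to 0.10 without P32 mouse 4. At P34 and P38 it was -0.02 ± 0.17 and -0.03 ± 0.17, with 95% confidence intervals of -0.38 to 0.35 and -0.40 to 0.33. Ddit3 lies on chromosome 10 (127290774-127296288). A shorter gene of the same symbol lies inside it and had 0 counts in all 12 libraries. Whether reads on exons that both share went uncounted was not tested, and if so the level of Ddit3 per kb would be understated. The ends of Ddit3 overlap Mars and Gm4189 on the opposite strand.

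Atf3, a stress-induced factor that follows ATF4 and many other signals, was low in all retinas. It was at 3.96, 3.88 and 3.74 CPM in the controls, 5.22, 4.16 and 4.21 in the P32 mice, 4.78, 4.14 and 4.604 in the P34 mice and 6.24, 3.45 and 3.73 in the P38 mice. All P32 and P34 values lay above the narrow control range, whereas at P38 mouse 10 was the highest of all and the other P38 mice were below every control. The log2 fold changes were 0.23, 0.22 and 0.21 (each SE 0.22, adjusted p of 0.731, 0.767 and 0.890 by edgeR). Without P38 mouse 10 the P38 value turned to -0.10.

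Xbp1, whose spliced mRNA encodes the factor of the IRE1 branch, was the member with the largest negative log2 fold change from P30 at P38 and in the 9 cKO mice together. It was at 79.8, 80.3 and 63.9 CPM at P30, 67.6, 80.8 and 70.1 in the P32 mice, 63.4, 51.8 and 60.8 in the P34 mice and 60.1, 72.3 and 62.1 in the P38 mice. Only the P34 mice lay entirely below the controls, by a small margin to P30 mouse 3. The log2 fold change was -0.04 ± 0.13 for P32, -0.35 ± 0.13 for P34 (SE, unadjusted p = 0.0167, adjusted p = 0.353 by edgeR) and -0.20 ± 0.13 for P38. The P34 mice were also those with the lowest ciliary body and iris markers, whose part in this value was not tested.

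Trib3 encodes a pseudokinase that is induced by ATF4 and CHOP and restrains them. It was at 5.27, 5.45 and 3.86 CPM at P30, 7.38, 4.81 and 5.72 in the P32 mice, 3.31, 3.67 and 4.30 in the P34 mice and 5.75, 4.43 and 3.94 in the P38 mice. The P34 mice lay below all P32 mice but overlapped the controls. Relative to P30 the log2 fold change was 0.29 ± 0.22 (P32), -0.37 ± 0.22 (P34) and -0.05 ± 0.22 (P38) (SE), with edgeR adjusted p of 0.701, 0.585 and 0.983. Between P32 and P34 it was -0.67 ± 0.22 (unadjusted p = 0.0108, adjusted p = 0.107 by edgeR). DESeq2 gave this difference an adjusted p of 0.0385 and called 7.63% of all genes in the same comparison, and without P32 mouse 4 it was -0.49 in edgeR.

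Chac1 encodes an enzyme that degrades glutathione and is induced by ATF4. It was at 1.07, 0.868 and 1.01 CPM in the controls, 1.71, 1.63 and 1.18 in the P32 mice, 1.60, 1.30 and 1.59 in the P34 mice and 1.41, 1.13 and 1.32 in the P38 mice. Each cKO mouse was above each control, with P38 mouse 11 closest to P30 mouse 1. These levels rest on 34 to 68 counts per library. The log2 fold change was 0.61 ± 0.22 at P32, 0.60 ± 0.22 in the P34 mice and 0.38 ± 0.22 in the P38 mice. The unadjusted p of edgeR's fit was 0.0179, 0.0196 and 0.112 at these ages, and the adjusted p was 0.698, 0.370 and 0.847. For the 9 cKO mice together it was 0.54 ± 0.19, or 1.45-fold (95% confidence interval 0.13 to 0.94 on the log2 scale, unadjusted p = 0.0128, adjusted p = 1 by edgeR). It was 0.45 without mice 4, 7 and 10 and 0.55 with female mice alone.

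Asns, which makes asparagine and is the classical target of the amino acid response, had group means of 59.5 to 69.6 CPM and a spread of 8.09 to 15.4 CPM (SD) between mice of an age. It was at 68.6, 60.1 and 49.8 CPM at P30, 78.9, 64.0 and 66.0 in the P32 mice, 84.1, 53.4 and 69.9 in the P34 mice and 82.0, 61.3 and 53.0 in the P38 mice. The groups overlapped at every age. Its log2 fold changes were 0.23, 0.22 and 0.14 (each SE 0.19), with edgeR adjusted p of 0.716, 0.740 and 0.927.

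Herpud1 encodes an ER membrane protein of ER-associated degradation. It was at 57.5, 49.97 and 56.8 CPM at P30, 73.2, 65.6 and 57.9 in the P32 mice, 56.0, 48.8 and 53.2 in the P34 mice and 53.4, 48.6 and 50.3 in the P38 mice. The P32 mice were above all other mice, although P32 mouse 6 exceeded the highest control by less than 1 CPM. The log2 fold change from P30 at P32 was 0.26 ± 0.11 (unadjusted p = 0.02996, adjusted p = 0.698 by edgeR), and 0.17 without P32 mouse 4. From P32 to P38 it was -0.37 ± 0.11 (unadjusted p = 0.00458, adjusted p = 0.117 by edgeR), below the limit of 0.5 in size. A gene antisense to its first bases (Gm15890) was annotated, and the strand setting of the counting is not given in the sources used here.

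Sesn2 encodes a leucine-sensing inhibitor of mTORC1. It was at 15.96, 17.3 and 17.3 CPM at P30, 18.8, 20.6 and 20.01 in the P32 mice, 19.8, 19.0 and 21.9 in the P34 mice and 15.7, 17.6 and 17.9 in the P38 mice. The P32 and P34 values lay above all controls and the P38 values overlapped them. The log2 fold changes were 0.24 ± 0.10 for P32, 0.27 ± 0.10 for P34 and 0.02 ± 0.10 for P38. The unadjusted p of edgeR's fit was 0.0363, 0.0209 and 0.856, and the adjusted p was 0.698, 0.380 and 0.984. Without mice 4, 7 and 10 the P32 and P34 values were 0.26 and 0.27. A gene annotated within Sesn2 on the same strand (Gm12981) can take reads from it or make them ambiguous.

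Ddit4, also known as REDD1, inhibits mTORC1 and responds to hypoxia, glucocorticoids and ATF4. It was at 85.8, 96.3 and 114 CPM at P30, 95.9, 87.8 and 86.3 in the P32 mice, 90.3, 82.2 and 120 in the P34 mice and 139, 101 and 113 in the P38 mice. All groups overlapped the controls, while the P38 mice were above all P32 mice. The log2 fold change from P30 was -0.13 ± 0.16 (P32), -0.02 ± 0.16 (P34) and 0.25 ± 0.16 (P38), with edgeR adjusted p of 0.775, 0.985 and 0.847. From P32 to P38 it was 0.39 ± 0.16 (unadjusted p = 0.0336, adjusted p = 0.185 by edgeR).

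**Figure D2:**
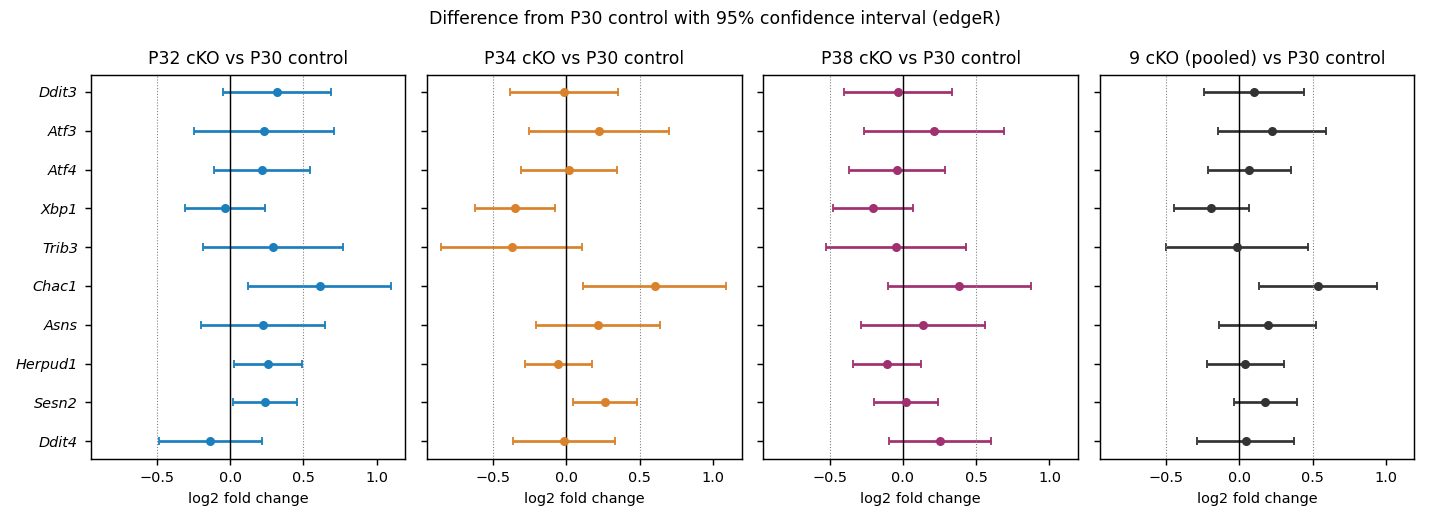
Log2 fold change from P30 control (horizontal axis, dotted lines at 0.5 in size) of the 10 genes at P32, P34 and P38 and in the 9 cKO mice together. Bars are 95% confidence intervals of edgeR's fit. The intervals that excluded 0 were those of Chac1 at P32, P34 and in the pooled comparison, Sesn2 at P32 and P34, Herpud1 at P32 and, below 0, Xbp1 at P34, and no gene of the 10 passed after adjustment over all genes.

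Across the list, genes were called where the adjusted p did not exceed 0.05 and the log2 difference from the compared group reached 0.5 in either direction. At P32, 0 of 10 members met this, as did 0% of all genes tested. An unadjusted p under 0.05 was reached by 3 members, all higher than in P30 (Chac1, Herpud1 and Sesn2), against 5.64% of all genes, and DESeq2 gave 3 as well (6.29% of all genes). The count of 3 fell to 1 without P32 mouse 4 (2.59% of all genes) or without mice 4, 7 and 10 together (3.43%). It was 0 without P32 mouse 5 (5.78%) or P30 mouse 2 (2.55%), and 4 without P32 mouse 6 (18.9%). The cKO and control ranges did not overlap for 4 members (Atf3, Chac1, Herpud1 and Sesn2), against 9.65% of all genes. The median log2 fold change was 0.23 over the members and -0.01 over all genes. The members' median was 0.11 without P32 mouse 4 and 0.12 in female mice alone (mice 5 and 6 at P32). At P34, 0 of 10 members were called by edgeR, against 0.66% of all genes, 123 of which were lower and none higher. An unadjusted p under 0.05 was reached by Chac1 and Sesn2, which were higher, and Xbp1, which was lower, against 10.5% of all genes, and by 3 members in DESeq2 (11.6% of all genes). The count of 3 fell to 1 without P30 mouse 1 (6.92% of all genes), P30 mouse 2 (6.57%) or P34 mouse 9 (7.72%). It was also 1 with sex as a covariate (13.2%) or without a filter on low counts (7.14%). Without P34 mouse 7 (6.13%) or 8 (13.1%) it was 2, and without P30 mouse 3 it was 4 (11.1%). The ranges of 4 members did not overlap (Atf3, Chac1 and Sesn2 above, Xbp1 below), against 20.1% of all genes.

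At P38, edgeR called 0 of 10 members and 0% of all genes. None of the members had an unadjusted p under 0.05 with edgeR or DESeq2, against 5.64 and 6.15% of all genes. In edgeR 1 did without P30 mouse 3 (7.16% of all genes). Only Chac1 did not overlap the controls, against 16.2% of all genes. The members' median log2 fold change was -0.00035 at P34 and -0.0074 at P38. With the 9 cKO mice as 1 group, 0 of 10 members were called by edgeR, against 0.0537% of all genes. Chac1 alone had an unadjusted p under 0.05 with edgeR (background 2.63%), DESeq2 also gave 1 member (background 2.78%), 0 members did so without P30 mouse 2 and 2 without P30 mouse 3 or P38 mouse 10, and Chac1 alone did not overlap (background 0.601%). The 95% confidence intervals of the members reached at most 1.10 in size at P32, 1.09 at P34, 0.87 at P38 and 0.94 in the pooled comparison, each time for Chac1, so that larger differences lay outside them. These comparisons share the P30 mice.

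Between the cKO ages, 0 of 10 members were called by edgeR in any comparison, against 0.242% of all genes from P32 to P34, 0.199% from P34 to P38 and 0% from P32 to P38. From P32 to P34, 3 members were lower at an unadjusted p under 0.05 (Trib3, Herpud1 and Xbp1), against 26.9% of all genes. DESeq2 gave 3 members (28.5% of all genes), of which Trib3 met both thresholds, as did 7.63% of all genes. The count of 3 was 1 with only the compared groups in the fit (19.8% of all genes). It was 2 to 4 when single mice were left out (15.7 to 36.2% of all genes). From P34 to P38 only Sesn2 reached an unadjusted p under 0.05 (log2 fold change -0.25 ± 0.10, adjusted p = 0.859 by edgeR), against 5.08% of all genes. In DESeq2 1 member did so (5.15% of all genes), and in edgeR none did without P38 mouse 10 (3.81%). From P32 to P38 these were Herpud1, which was lower, and Ddit4, which was higher, against 23.3% of all genes, and 4 members in DESeq2 (25% of all genes). The count of 2 was 1 without P32 mouse 5 (20.3% of all genes) or P38 mouse 10 (19.6%). It was also 1 without mice 4, 7 and 10 together (13.6%). By library totals (25.3%) or with sex as a covariate (29.2%) it was 4.

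The levels of several members varied together between mice. Atf3, Asns, Atf4, Ddit3, Chac1 and Herpud1 were each highest at P32 in mouse 4, at P34 in mouse 7 and at P38 in mouse 10, a pattern shown by 6 of 10 members and 15.3% of all genes tested. Those mice had the smallest shares of reads on no gene at their ages, whose part in these levels was not tested. Sesn2 was not highest in any of the 3 mice, and Ddit4 was highest in mouse 4 at P32 and mouse 10 at P38. Without these 3 mice, which were chosen after the data were seen, no member was called in any of the 7 comparisons, and the log2 fold change at P32 was -0.0080 for Atf4, 0.09 for Ddit3, 0.50 for Chac1 and 0.16 for Herpud1.

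**Figure D3:**
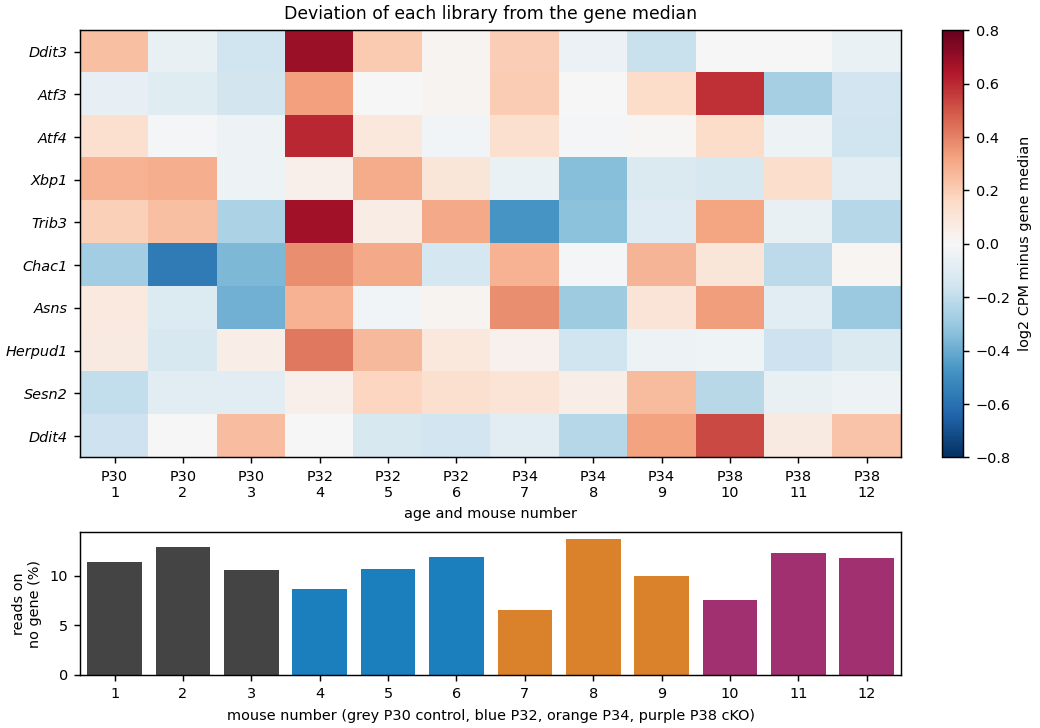
Upper panel, log2 CPM of each gene minus its median over 12 libraries (color), by age and mouse number. Lower panel, percentage of reads on no gene in the same libraries. Mice 4, 7 and 10, with 8.67, 6.53 and 7.53% of reads on no gene, were the highest of their age for Atf3, Asns, Atf4, Ddit3, Chac1 and Herpud1.

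Of 45 pairs of members, 36 had a positive Pearson correlation of log2 CPM over the 12 libraries, with a median r of 0.37. Without P32 mouse 4 these were 32 pairs and a median r of 0.20. Among all pairs of tested genes 49.8% were positive, with a median r of -0.0024, and 49.7% without that mouse. Permutation tests (two-sided, 100000 resamples, adjusted over 45 pairs) passed for 3 pairs by Pearson's r. How many of all gene pairs would pass these tests, or those within ages below, was not determined. Ddit3 and Atf4 had r = 0.89 (permutation p = 0.00148, adjusted p = 0.0342) and Spearman's rho = 0.64 (permutation p = 0.02997, adjusted p = 0.225). Without the 2 libraries farthest from the median of Ddit3 this r was 0.55, and without P32 mouse 4 it was 0.63, so the relation rested in part on these libraries. Atf3 and Asns had r = 0.79 (permutation p = 0.00152, adjusted p = 0.0342) and rho = 0.84 (permutation p = 0.00106, adjusted p = 0.0414), with r = 0.70 without the 2 farthest libraries. Ddit3 and Herpud1 had r = 0.81 (permutation p = 0.00326, adjusted p = 0.0489) and rho = 0.65 (permutation p = 0.0258, adjusted p = 0.225), with r = 0.53 without the 2 farthest. By rank, Atf4 also passed with Asns (rho = 0.80, permutation p = 0.00276, adjusted p = 0.0414) and with Atf3 (rho = 0.82, permutation p = 0.00184, adjusted p = 0.0414), and their r of 0.66 and 0.62 had adjusted permutation p of 0.0644 and 0.218.

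Within ages, after the group means were subtracted and libraries were permuted within groups (1296 permutations), 3 pairs passed over 45. Chac1 and Herpud1 had r = 0.93 (exact permutation p = 0.000772, adjusted p = 0.0347, the smallest p these permutations can give), against r = 0.51 over all libraries. Atf4 and Asns had r = 0.68 (exact permutation p = 0.00154, adjusted p = 0.0347), and Ddit3 and Atf4 had r = 0.87 (exact permutation p = 0.00309, adjusted p = 0.0463). Sesn2 had negative r within ages with Atf4 (-0.62), Atf3 (-0.60) and Ddit3 (-0.59), none of which passed (exact permutation, adjusted p = 0.169, 0.236 and 0.1997), and over all libraries their r was 0.0053, 0.0055 and 0.0199. When single mice were left out, 8 pairs passed by Pearson's r without P34 mouse 7, 1 without P38 mouse 10, 2 without P38 mouse 11 and 0 without any other mouse, and 0 passed without mice 4, 7 and 10 together.

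**Figure D4:**
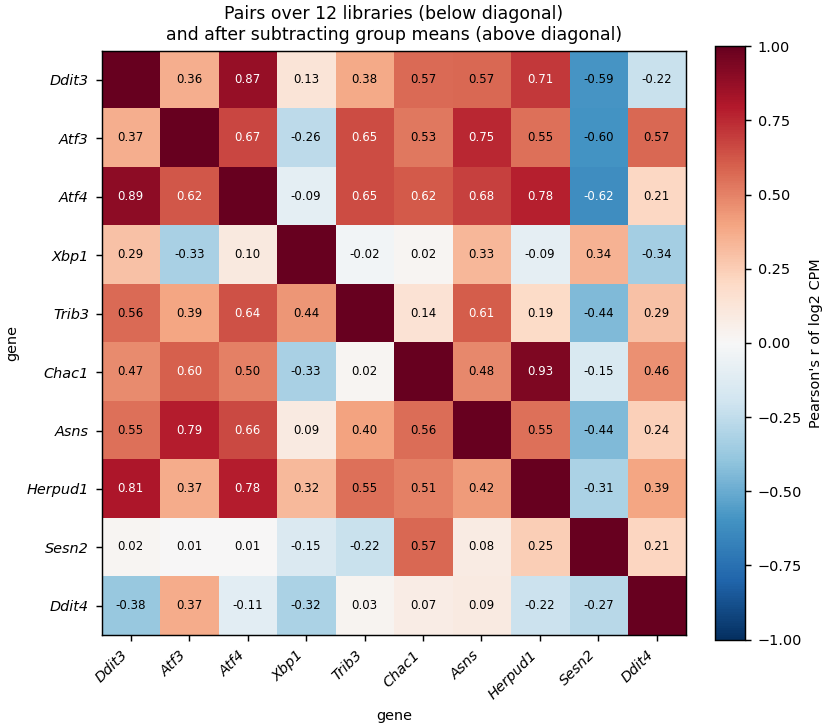
Pearson's r of log2 CPM for each pair of the 10 genes (color and printed value), over 12 libraries below the diagonal and after subtraction of group means above it. Ddit3 with Atf4 (0.89 and 0.87) was among the highest in both, whereas Chac1 with Herpud1 was 0.51 over all libraries and 0.93 within ages.

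For each member other than Atf3 the 3 tested genes with the highest r over the 12 libraries were found, as a description without a test. Atf4 was followed most closely by Selenos (r = 0.97), Emc6 (0.97) and Eif3g (0.97). Asns was followed by Vcp (0.90), Ppp2cb (0.90) and Retreg2 (0.89). The nearest genes were Aamp, Rac3 and Pard6a for Ddit3 (r = 0.97, 0.96 and 0.96) and Prrg2, Zbtb8os and Btg1 for Herpud1 (0.97, 0.96 and 0.95). They were Card19, C230096K16Rik and Enkd1 for Trib3 (0.94, 0.94 and 0.93), Ap1m1, Sh3gl1 and Eya4 for Xbp1 (0.91, 0.88 and 0.87), and Bean1, Gm11557 and Smim10l2a for Chac1 (0.91, 0.85 and 0.84). Bag6, Pik3r2 and Gm28529 were nearest to Ddit4 (0.88, 0.87 and 0.86), and Nptx2, Fam13c and Nr4a2 to Sesn2 (0.83, 0.83 and 0.83). All of these values share the same 12 libraries, P32 mouse 4 included. Without the 2 libraries farthest from the member's median, r ranged from 0.72 (Gm11557 with Chac1) to 0.95 (Selenos with Atf4).

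Other genes of the pathway were taken from lists. Among all genes tested, an unadjusted p under 0.05 was reached by 2.55% that were higher and 3.09% that were lower at P32. The same shares were 3.4% higher and 7.06% lower for P34 and 1.82% higher and 3.82% lower for P38, and the counts of each list stand against these shares. Of 13 sensors and regulators of the unfolded protein response, none was called by edgeR at any age, and 0, 0 and 1 had an unadjusted p under 0.05 at P32, P34 and P38. Atf6, the sensor cleaved in the Golgi, was at 109 ± 12.3 CPM at P30 and 134 ± 6.17 at P38 (SD, n = 3, log2 fold change 0.30, adjusted p = 0.847 by edgeR), but at 70.7, 88.6 and 107 at P32 (log2 fold change -0.29, adjusted p = 0.698 by edgeR). Eif2ak3, which encodes PERK, was at 44.7 ± 2.12 CPM at P30 and 39.6 ± 4.85 at P32 (adjusted p = 0.698 by edgeR). Of 24 ER chaperones and degradation components, none was called, and 0, 0 and 1 had an unadjusted p under 0.05. The closest were Hsp90b1, the ER chaperone GRP94, at P38 (732 ± 124 against 598 ± 51.8 CPM, adjusted p = 0.847 by edgeR), and Hspa13 at P34 (76.2 ± 7.96 against 63.5 ± 4.11 CPM, adjusted p = 0.508 by edgeR).

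Of 15 further ATF4 targets, 12 were tested and none was called by edgeR, while 3 were lower at P34 and 1 at P38 at an unadjusted p under 0.05. Slc7a11, the cystine transporter, was at 22.7, 15.7 and 26.4 CPM at P30 and at 2.60, 2.60 and 3.18 at P34, a log2 fold change of -2.95 ± 0.67 (unadjusted p = 0.000892, adjusted p = 0.0954 by edgeR). At P38 mice 10 and 11 were above the controls again, at 43.2 and 32.6 CPM, and mouse 12 was at 5.26. Nupr1, a stress-induced chromatin protein, was at 69.0, 7.07 and 101 CPM at P30 and at 6.43, 5.81 and 5.86 at P34 (log2 fold change -3.29 ± 1.16, adjusted p = 0.342 by edgeR). At P32 Nupr1 was at 241, 119 and 4.63 CPM, so its lowest library was P32 mouse 6, and at P38 it was at 85.6, 33.4 and 17.2. The summed lens markers were at 45771, 33413 and 749 CPM in these P32 mice, 11376, 532 and 39457 at P30 and 280 to 765 at P34. Slc7a11 was at 22.5, 21.6 and 5.64 CPM at P32 and lowest at P34, as were the 6 ciliary body and iris markers, 4 of which were called lower there. The part of the lens, ciliary body and iris in these values was not tested. DESeq2's test called Slc7a11 and 1.98% of all genes at P34.

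The amino acid lists held the single call. Of 11 amino acid transporters, Slc43a1, a transporter of branched-chain and other large neutral amino acids, was called at P34 by edgeR (adjusted p = 0.0270). It had 24, 37 and 22 counts in the P30 mice, 6, 21 and 7 in the P32 mice, 2, 2 and 1 in the P34 mice and 5, 2 and 1 in the P38 mice (unadjusted p = 0.000278, adjusted p = 0.506 by edgeR at P38). It was no longer called with sex as a covariate or without mice 4, 7 and 10 together. Nor was Slc43a1 called without P30 mouse 2 or 3, or without P34 mouse 7, 8 or 9. The 9 RPE markers, none of them at 0, summed to 144, 479 and 515 CPM in the P30 mice and to 76.6 to 173 at P32. They summed to 103 to 153 at P34, with 2 called lower at P34, and to 95.4 to 205 at P38. The 5 smooth muscle markers summed to 19.5, 152 and 171 CPM at P30, 5.96 to 39.1 at P32, 4.63 to 7.14 at P34 and 11.4 to 15.2 at P38. Of the 4 tested, 3 were called lower at P34, and Cnn1 was at 0 in 2 libraries. P30 mouse 1 was the lowest control for both lists and, at 0.379 against 0.747 and 0.654 CPM, for Slc43a1. The part of RPE and smooth muscle in the call was not tested. Of 12 enzymes of amino acid and one-carbon synthesis none was called by edgeR, and 1 was higher at P32 and 3 lower at P34 at an unadjusted p under 0.05. Mthfd2, a mitochondrial folate enzyme, was at 6.78 ± 0.374 CPM at P30 and 8.73 ± 1.56 at P32 (adjusted p = 0.698 by edgeR), and Cbs, of transsulfuration, at 2.85 ± 0.418 and at 1.87 ± 0.227 at P34 (adjusted p = 0.459 by edgeR). Of 21 tRNA synthetases none was called and 1 had an unadjusted p under 0.05, at P34. Aars and Nars were at 214 ± 8.65 and 191 ± 5.02 CPM at P30 and at 266 ± 33.1 and 219 ± 19.4 at P34 (SD, n = 3), with adjusted p of 0.339 and 0.479 by edgeR.

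Among lists that bear on Sesn2 and Ddit4, none of 10 sestrin and mTORC1 genes was called by edgeR, with 1 lower at P32 and 1 at P34 at an unadjusted p under 0.05. Castor1, an arginine sensor, was at 2.73 ± 0.430 CPM at P30 and 1.59 ± 0.161 at P34 (adjusted p = 0.388 by edgeR), but at 5.52, 4.01 and 2.34 at P32 (log2 fold change 0.53, adjusted p = 0.698 by edgeR). Sesn3 was at 217 ± 20.5 CPM at P30 and 174 ± 24.9 at P32 (adjusted p = 0.698 by edgeR). None of 11 glucocorticoid targets was called, with 1 lower at P32 and 1 at P38 at an unadjusted p under 0.05, namely Cdkn1a at P32 (2.30 ± 0.232 against 3.48 ± 0.0596 CPM) and Mt2 at P38 (9.39 ± 1.12 against 16.4 ± 3.25 CPM). None of 12 hypoxia targets was called by edgeR, with 1 lower at P34 at an unadjusted p under 0.05. This was Slc2a1, the glucose transporter, at 253 ± 25.7 CPM at P30 and 168 ± 21.6 at P34 (log2 fold change -0.59 ± 0.15, adjusted p = 0.162 by edgeR), while Vegfa was at 161 ± 16.2 and 129 ± 20.2 CPM (adjusted p = 0.540 by edgeR). The paper, which used DESeq2, lists Slc2a1 among its downregulated genes at P34.

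Atf3 is also an immediate early gene, and of 15 genes of that class 14 were tested. None was called by edgeR, but 5 were higher at P32 at an unadjusted p under 0.05, against 2.55% of all genes, with a median log2 fold change of 0.48. At P34, 2 were higher and at P38, 1 was lower. Dusp1, a phosphatase of MAP kinases, was at 13.1, 13.7 and 17.0 CPM at P30 and at 31.6, 29.9 and 30.0 at P32, a 2.09-fold difference (unadjusted p = 0.000312, adjusted p = 0.592 by edgeR). Nr4a1, an orphan nuclear receptor, was at 23.9, 22.9 and 37.4 CPM at P30 and at 41.5, 49.8 and 57.7 at P32, or 1.77-fold (adjusted p = 0.698 by edgeR). All P32 mice exceeded all controls for both genes, and DESeq2's test called both, as it did 0.134% of all genes at P32.

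**Figure D5:**
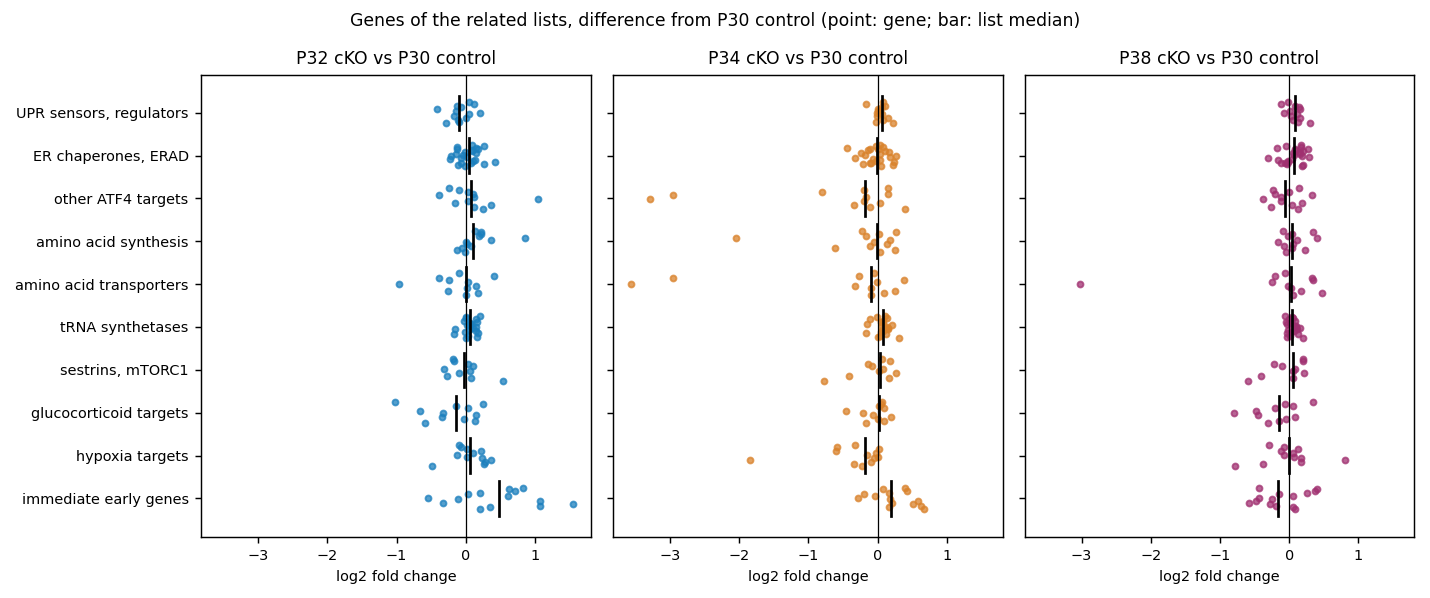
Log2 fold change from P30 control (horizontal axis) at P32, P34 and P38 of the tested genes of 10 related lists. Points are genes and black bars list medians. Immediate early genes had a median of 0.48 at P32, and the points far to the left at P34 include Slc43a1, Slc7a11 and Nupr1.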

How the data were processed

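Total RNA of whole retinas was measured in 3 mice per age. The authors prepared libraries with a stranded mRNA kit, mapped single reads to mm10 with STAR 2.5.3a and used HTSeq 0.6.1p1 to obtain counts per gene, which they deposited as whole numbers without normalization, 1 set per mouse. Those versions are from the submitters' processing notes. Reads mapping to several positions were not counted on genes, and the strand setting is not given in the sources used here.

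The deposited counts were scaled with edgeR 4.0.16 (TMM) in R 4.3.3, filtered with filterByExpr, and tested by the quasi-likelihood method with all 12 libraries in 1 fit, or with the 9 cKO mice against the P30 mice. Benjamini-Hochberg adjustment covered the 18628 genes tested. Procedures were tested on simulated data. Correlations used log2 CPM with a prior count of 2 in Python 3.11.15. Library totals ranged from 29701483 to 60145034, so that a floor of 3 counts, which covers counting error only, equals 0.0499 to 0.101 CPM. Positions and exon lengths are from GENCODE M21 (GRCm38), symbols of which named 99.9% of the genes. Members, lists and tests were chosen with earlier results of these data known. Genes named are all members, from each list up to 3 called genes per comparison or else the 2 with the smallest unadjusted p against P30, and the 3 genes most like each member, which for Atf3 are not reported here. Cebpb, Fgf21, Gdf15 and Egr2 did not pass the filter. The alternatives were DESeq2 1.42.0, other scaling, filters, thresholds and fits, sex, and leaving out mice. Fits without mice 4, 7 and 10, fits with female mice, the pairs within ages, and the shares over all gene pairs and of all genes with an outlying mouse were added after seeing the data.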

Additional observations from a re-analysis of the deposited data

Results flagged for a closer look

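Over the 9 cKO mice, P32 mouse 4 was set apart from the rest for 2 members. For Ddit3 (68.6 CPM, next highest 49.2) its gap to the nearest mouse was 0.625 of the whole range, and for Atf4 (333 CPM, next highest 243) it was 0.657. Both exceeded the 95% critical value of Dixon's test for 9 values. Of all genes tested, 15.5% had such a gap on either side and 9.93% had it with this mouse highest, and the 9 mice are of 3 ages. The other 8 members gave no such gap. The critical value is set for about 1 in 20 groups of values from 1 normal distribution, and mice of 3 ages are no such group. The share of 15.5% is therefore the one to compare with. The same mouse stood apart on the first principal component, was male, and had 32.2% of reads without a unique position, the highest of 12.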

How the results depend on the processing

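The count of called members stayed at 0 in all 7 comparisons when each mouse was left out in turn and under DESeq2's size factors, library totals, other filters, a robust fit, sex as a covariate and no limit on the fold. With a mouse left out, the lowest adjusted p of Herpud1 by edgeR was 0.0303 from P32 to P34 and 0.0282 from P32 to P38. Its log2 fold change stayed under 0.5 in size. Without P32 mouse 6, 1416 of all genes were called higher and 1310 lower from P32 to P34. From P32 to P38 these were 1242 and 704. With DESeq2's own test, 1 member (Trib3) was called from P32 to P34, against 7.63% of all genes. With an unadjusted p in place of the adjusted one and the limit of 0.5 kept, 1 member was called at P32, P34 and in the pooled comparison (Chac1) and 1 from P32 to P34 (Trib3), against 2.9, 6.27, 1.88 and 14.4% of all genes. The pairs passing by Pearson's r (3) were 3 with a prior count of 0.5, 0 without mice 4, 7 and 10, and 0 to 8 when single mice were left out. Genes of the related lists called at P34 (1) numbered 10 with unadjusted p, against 6.27% of all genes, and 3 by DESeq2, against 1.98%. They numbered 2 by library totals, without a filter or with only the compared groups. With at least 1 CPM in 3 libraries or without mice 4, 7 and 10 they numbered 0, and 0 to 2 when single mice were left out. At P32 they numbered 5 with unadjusted p (2.9% of all genes), 2 by DESeq2 (0.134%) and 1 without a filter, against 0. At P38 and in the pooled comparison they numbered 2 and 1 with unadjusted p, against 3.46 and 1.88% of all genes. Library totals put the median log2 fold change of all genes from P32 to P38 at -0.14 in place of -0.02. No paired analysis was possible because the mice carry numbers that no 2 groups share.

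None of the reversals below concerned a called difference, and the cause was not tested. With scaling by library totals, signs changed to -0.0416 for Atf4 (P34 vs P30), -0.063 for Sesn2 (P38 vs P30), -0.0539 for Sesn2 (P34 vs P32). With sex as a covariate, signs changed to -0.17 for Atf4 (P34 vs P30) and 0.036 for Ddit4 (P34 vs P30), -0.025 for Asns (P38 vs P30), -0.00773 for Ddit3 (pooled cKO vs P30) and -0.0471 for Atf4 (pooled cKO vs P30). With only the compared groups in the fit, signs changed to 0.0158 for Atf3 (P34 vs P32), 0.0149 for Chac1 (P34 vs P32) and 0.0139 for Asns (P34 vs P32), 0.00599 for Atf3 (P38 vs P32). Without mice 4, 7 and 10, signs changed to -0.00804 for Atf4 (P32 vs P30) and 0.00265 for Xbp1 (P32 vs P30), -0.0352 for Atf4 (P34 vs P30) and 0.0281 for Ddit4 (P34 vs P30), -0.11 for Atf3 (P38 vs P30) and -0.0646 for Asns (P38 vs P30), 0.065 for Atf3 (P34 vs P32) and 0.0401 for Chac1 (P34 vs P32), 0.0849 for Ddit3 (P38 vs P34), -0.0275 for Ddit3 (pooled cKO vs P30), -0.0578 for Atf4 (pooled cKO vs P30), -0.0261 for Herpud1 (pooled cKO vs P30) and -0.0129 for Ddit4 (pooled cKO vs P30). With female mice only, signs changed to 0.0232 for Xbp1 (P32 vs P30), -0.000664 for Atf4 (P34 vs P30) and 0.30 for Ddit4 (P34 vs P30), -0.0349 for Atf3 (P38 vs P30) and -0.16 for Asns (P38 vs P30), 0.14 for Atf3 (P34 vs P32), 0.19 for Chac1 (P34 vs P32) and 0.11 for Asns (P34 vs P32), 0.12 for Ddit3 (P38 vs P34), -0.13 for Trib3 (P38 vs P34) and -0.10 for Ddit4 (P38 vs P34), -0.0352 for Atf4 (pooled cKO vs P30). In the fit with female mice, P34 was represented by mouse 9 alone and P38 by mouse 12 alone. Its values for P34 and P38 therefore rest on single mice, and those of P38 vs P34 compare a single mouse with another. Leaving out single mice changed the sign of these log2 fold changes, given with their lowest and highest values. They were, in P32 vs P30, Xbp1 -0.14 to 0.0183. They were, in P34 vs P30, Ddit3 -0.13 to 0.11, Atf4 -0.0345 to 0.071, Ddit4 -0.21 to 0.0933. They were, in P38 vs P30, Ddit3 -0.12 to 0.0926, Atf3 -0.10 to 0.37, Atf4 -0.12 to 0.0288, Trib3 -0.21 to 0.064, Asns -0.0504 to 0.27, Sesn2 -0.0191 to 0.0824. They were, in P34 vs P32, Atf3 -0.0655 to 0.11, Atf4 -0.32 to 0.0121, Chac1 -0.16 to 0.0891, Asns -0.18 to 0.15, Sesn2 -0.039 to 0.0739, Ddit4 -0.0721 to 0.23. They were, in P38 vs P34, Ddit3 -0.0871 to 0.10, Atf3 -0.33 to 0.15, Atf4 -0.14 to 0.0119, Asns -0.27 to 0.0886. They were, in P38 vs P32, Atf3 -0.33 to 0.14, Asns -0.28 to 0.0422. They were, in pooled cKO vs P30, Atf4 -0.0077 to 0.12, Trib3 -0.16 to 0.0729, Herpud1 -0.0203 to 0.0789, Ddit4 -0.048 to 0.16.

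Chac1 rested on 34 to 68 counts per library and Slc43a1 on 1 to 37. Groups of 3 mice left confidence intervals that reached about 0.2 to 0.5 on the log2 scale to either side of each member's value. Where an interval included 0, the difference could not be told from 0. The intervals that excluded 0 are not adjusted for the number of genes tested.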
